A study of Mus musculus with 8 samples.

Results

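Glucocorticoid-responsive and arrestin-domain genes were examined in the hippocampus of Tg6799 mice, which develop amyloid pathology. The 10 genes were Nr3c1, Fkbp5, Sgk1, Tsc22d3, Klf9, Zbtb16, Cdkn1a, Arrdc2, Arrdc3 and Txnip, out of 18193 genes with a probe set of their own on the array. They were taken by symbol, with all 30 probe sets annotated to 1 of these symbols alone, and the brightest probe set on average stood for its gene. Expression was measured on 8 one-colour arrays, 2 in each of 4 groups of female mice. MT8m and LM8m are Tg6799 mutants and their littermates at 8 months, and MT4m and LM4m are mutants and littermates at 4 months. The mutants carry human APP with the Swedish, Florida and London mutations and human presenilin 1 with 2 familial Alzheimer's disease mutations, both under neuronal Thy1 promoter sequence. No group was treated, and the labels describe the controls only as littermates. The labels do not say if both arrays of a group hold RNA of different mice, so a p-value here rests on sample-to-sample spread that may be technical.

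Glucocorticoids enter cells and bind the receptor encoded by Nr3c1, which is held ready in the cytoplasm by heat shock proteins and moves to the nucleus, where it binds DNA as a dimer and switches genes on or off. The hippocampus is rich in this receptor and takes part in the feedback that ends a stress response. Fkbp5, Sgk1, Tsc22d3, Klf9, Zbtb16 and Cdkn1a are among the genes that it can induce. Arrdc2, Arrdc3 and Txnip belong to the alpha-arrestins, adaptor proteins that help to remove receptors and transporters from the cell surface and that are themselves induced by glucocorticoids in some tissues.

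To describe the letters just before these genes, the 250 bases ahead of each annotated start site were taken from RefSeq (GRCm38.p6). They were searched on both strands for AGAACA, the hexamer that each receptor of a dimer reads. A second search was for the full element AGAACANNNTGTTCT, which holds 2 hexamers in opposite orientation. The same bases were also searched for the E-box CACGTG, the core of the sites bound by the glucose-sensing regulators of Txnip. Sequence was found for 8 of the 10 genes, with 18 start sites. A hexamer lay before 4 of these 18 start sites and in 16.1% of the 32851 windows of all genes. The 4 were start sites 1, 4 and 5 of Sgk1 and start site 1 of Tsc22d3. Sgk1 alone had 6 of the 18 start sites, so the count is not one of separate genes. The full element lay before 1 of the 18, start site 5 of Sgk1, and in 0.00913% of all windows. An E-box lay before 2 of the 18, start site 1 of Fkbp5 and start site 5 of Sgk1, and in 6.02% of all windows. The window of Txnip held no exact CACGTG, and sites that differ from it by any letter were not searched for. The window of Sgk1 is shown because it holds the full element, that of Tsc22d3 because it holds a single hexamer, and that of Arrdc3, the member with the clearest difference with age, because these letters were not in it. Hexamers are in capitals, and each window ends at the base before the start.
Sgk1, start site 5, chr10:21993640-21993889, plus strand: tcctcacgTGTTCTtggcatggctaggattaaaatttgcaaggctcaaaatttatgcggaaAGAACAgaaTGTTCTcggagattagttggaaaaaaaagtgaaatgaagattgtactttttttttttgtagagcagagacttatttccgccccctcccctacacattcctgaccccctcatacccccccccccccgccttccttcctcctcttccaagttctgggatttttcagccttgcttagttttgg
Tsc22d3, start site 1, chrX:140600523-140600772, minus strand: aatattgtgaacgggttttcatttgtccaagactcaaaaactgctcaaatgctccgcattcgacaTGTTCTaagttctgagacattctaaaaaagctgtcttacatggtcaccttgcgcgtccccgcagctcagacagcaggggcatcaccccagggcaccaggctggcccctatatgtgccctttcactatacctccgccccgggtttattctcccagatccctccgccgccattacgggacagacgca
Arrdc3, start site 1, chr13:80883134-80883383, plus strand: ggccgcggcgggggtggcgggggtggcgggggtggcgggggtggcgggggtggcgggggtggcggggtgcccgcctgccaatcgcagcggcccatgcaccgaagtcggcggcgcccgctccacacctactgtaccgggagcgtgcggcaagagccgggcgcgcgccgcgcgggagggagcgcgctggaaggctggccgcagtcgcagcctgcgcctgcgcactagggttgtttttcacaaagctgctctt
The full element before Sgk1 began 189 bases ahead of the start, and another hexamer lay 242 bases ahead of it. The hexamer of Tsc22d3 began 185 bases ahead. A match is a description of letters and not of binding, and the arrays do not show which start site was in use. Only exact letters within 250 bases were searched, so a window without them does not show that the gene lacks a receptor site.

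Some arrays stood apart before any member was examined. Thy1, whose promoter sequence drives the transgenes, read 11.73 to 11.82 on 3 mutant arrays and 9.53 to 9.96 on the littermate arrays, but 9.90 on the library labelled MT8m replicate 1, where the microglial gene Cst7 (1.75) and the astrocyte gene Gfap (7.17) were also at littermate level. The mean of 10 choroid plexus markers lay at 3.39 to 3.61 on mutant arrays and 5.15 to 6.39 on littermate arrays, with Ttr, which encodes the thyroid hormone carrier of the choroid plexus, at 10.66 to 10.97 and 12.43 to 12.83 in the same order. Hippocampal neuron markers were present throughout, with a mean of 8.26 to 8.57 over 8 genes. The difference between the 3′ and 5′ Gapdh control probe sets, a sign of RNA degradation where it is large, was 2.19 on LM4m replicate 1 and 0.66 to 1.42 on the others.

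No member passed the test in any of the 7 comparisons. Genotypes follow the labels, whereas the study's own published tables carry the mutant heading over the littermate arrays and the littermate heading over the mutant arrays, so every genotype difference below runs against those tables. All values here are log2 expression values, differences are log2 differences with their standard errors, and a gene passed at an adjusted p under 0.05 in limma over 45037 probe sets. For mutants against littermates, 0 of 10 members passed at 8 months, where 0.02% of all probe sets did, 0 of 10 at 4 months, where 0% did, and 0 of 10 with both ages averaged, where 0.06% did. For 8 against 4 months, 0 of 10 passed in MT, in LM and averaged over genotypes, with 0% of all probe sets passing in each. The interaction of genotype and age was passed by 0 of 10 members and by 0% of probe sets. At an unadjusted p under 0.05, the members were 0 in mutants against littermates at 8 months (3.39% of all probe sets), 2 at 4 months (Sgk1 higher and Klf9 lower, 4.86%) and 1 averaged over ages (Sgk1, 5.76%). For 8 against 4 months they were 1 in MT (Arrdc3, 5.7%), 1 in LM (Arrdc3, 3.45%) and 2 averaged over genotypes (Nr3c1 and Arrdc3, both lower, 6.48%), and 0 for the interaction (2.58%).

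**Figure D1:**
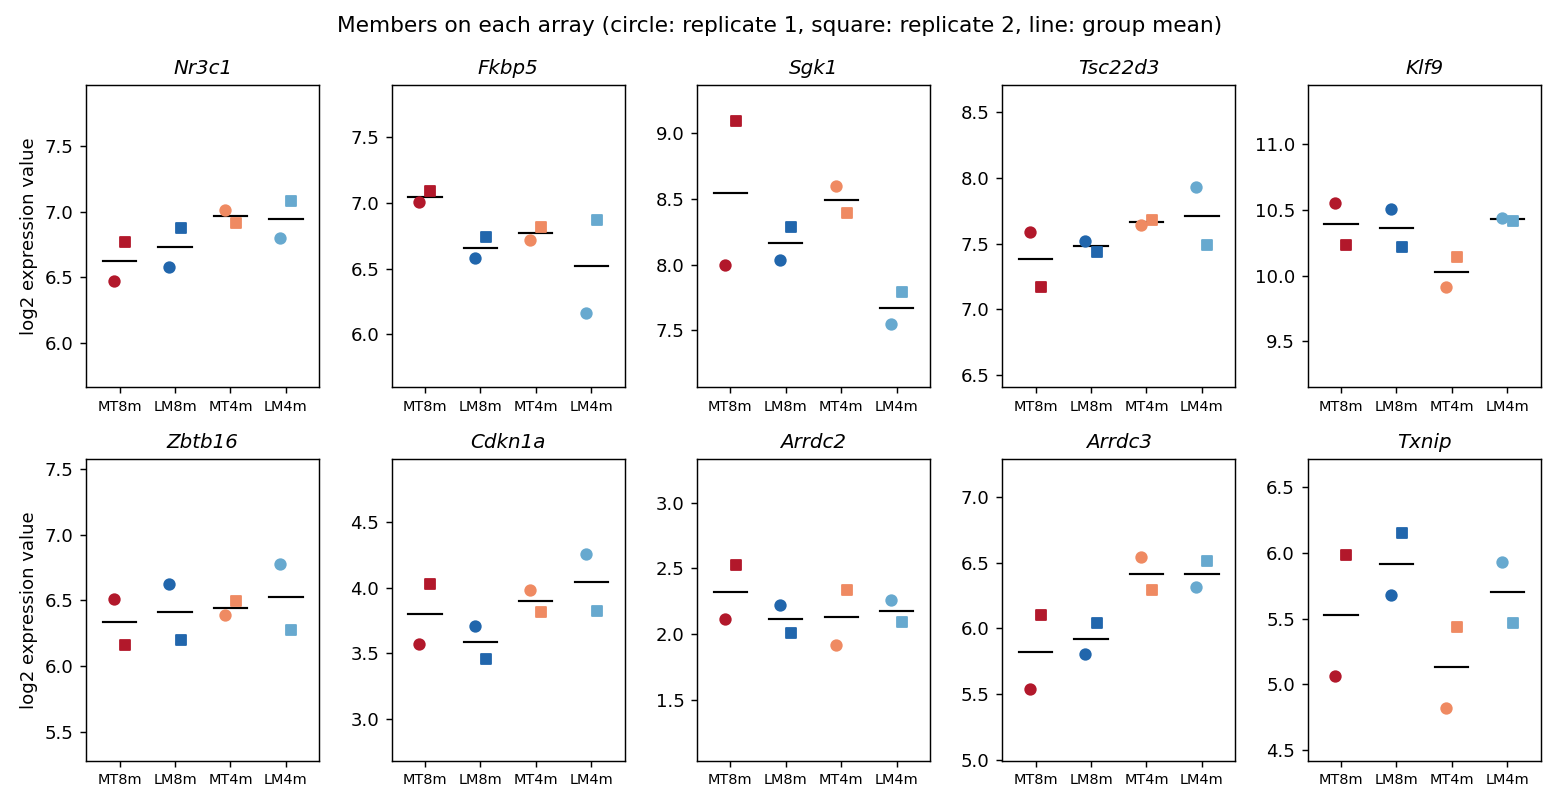
Log2 expression value (vertical axis, each panel spanning the same range around its own mean) of the brightest probe set of each of the 10 genes on the 8 arrays, by group (horizontal axis). Circles are replicate 1, squares replicate 2 and lines group means. Arrdc3 has its 4 lowest values on the 8-month arrays, and Sgk1 its 3 highest on mutant arrays. Levels of different genes are not comparable.

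The median genotype difference of the 10 members averaged over ages was -0.05, against -0.01 over all genes, with 4 members higher and 6 lower in mutants. The median age difference averaged over genotypes was -0.02, against 0.00 over all genes, with 5 higher and 5 lower at 8 months. With only 2 arrays a group, values that do not overlap were common. In mutants against littermates, 1 member stood wholly above at 8 months and none below (28.2% of all probe sets did not overlap), and at 4 months 1 stood above and 2 below (36.2%). With 4 arrays a side, 0 members stood apart between genotypes (3.26%). In 8 against 4 months, 2 stood above and 3 below in MT (36.2%), 1 above and 2 below in LM (30.3%), and averaged over genotypes 1 stood apart, Arrdc3 (3.72% in either direction and 2.01% lower).

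**Figure D2:**
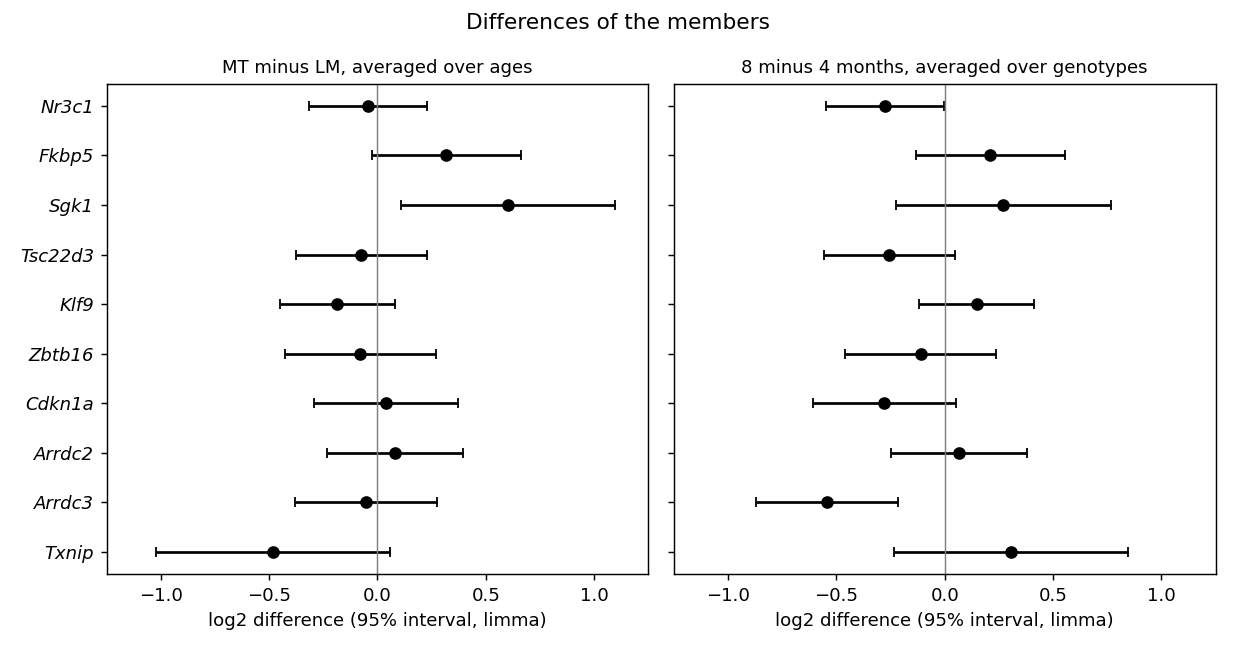
Log2 difference of each gene (horizontal axis) with its 95% limma interval, for MT minus LM averaged over ages (left) and 8 minus 4 months averaged over genotypes (right). The intervals that leave out 0 are those of Sgk1 on the left and of Nr3c1 and Arrdc3 on the right, all at unadjusted confidence.

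Nr3c1, the glucocorticoid receptor, read 6.48 and 6.77 in MT8m, 6.58 and 6.88 in LM8m, 7.01 and 6.92 in MT4m and 6.80 and 7.08 in LM4m. The 2 values of MT8m lay below both of MT4m, while LM8m and LM4m overlapped. Averaged over genotypes, Nr3c1 was -0.28 ± 0.12 at 8 months relative to 4 months, a 1.21-fold difference (limma p = 0.0473, adjusted p = 0.769; exact permutation test, two-sided, p = 0.0571 with 4 arrays a side). The genotype difference was -0.04 ± 0.12 averaged over ages, with a 95% interval of -0.31 to 0.23. In the order of the group means (MT4m, LM4m, LM8m, MT8m) no neighbours differed beyond their spread. The 5 other Nr3c1 probe sets were dimmer, and over all 6 the age difference was -0.35 to 0.14, lower in 4 of 6.

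The receptor's partners included members of the machinery that loads it with hormone. Of 13 listed genes, 9 were measured by a probe set of their own, and none passed. At 8 months relative to 4 months, averaged over genotypes, 7 of the 9 were lower and 2 higher, with a median of -0.20 against 0.00 over all genes, and 3 were lower at an unadjusted p under 0.05 (6.48% of all probe sets reached it in either direction). Dnajb1, a co-chaperone of Hsp70, read 7.44 and 7.09 in MT8m and 7.42 and 7.26 in LM8m, against 7.73 and 7.62 in MT4m and 8.06 and 7.53 in LM4m. All 8-month values were below all 4-month values, at -0.43 ± 0.14 (limma adjusted p = 0.668). Stip1, which links Hsp70 to Hsp90, did not overlap either, at -0.32 ± 0.11 (limma adjusted p = 0.692). Hsd11b1, which regenerates active corticosterone inside cells, overlapped at -0.24 ± 0.15. Between genotypes, averaged over ages, the largest differences of the list were -0.19 ± 0.11 for Stip1, 0.14 ± 0.09 for the Hsp90 gene Hsp90aa1 and 0.13 ± 0.09 for the co-chaperone gene Bag1, and these overlapped over 4 arrays a side. At single ages Hsp90aa1 was 0.29 ± 0.12 at 4 months (limma adjusted p = 0.944) and -0.01 ± 0.12 at 8 months.

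Fkbp5 encodes a co-chaperone that lowers the affinity of the receptor for its hormone and is induced by it, closing a short feedback loop. It read 7.01 and 7.09 in MT8m and 6.58 and 6.74 in LM8m. At 4 months it read 6.72 and 6.82 in MT4m and 6.16 and 6.87 in LM4m. The groups were apart at 8 months and overlapped at 4 months. Fkbp5 was 0.39 ± 0.21 at 8 months and 0.32 ± 0.15 averaged over ages, mutants minus littermates, and neither passed (limma adjusted p = 1 and 0.853). Its 6.16 on LM4m replicate 1, the array with the large Gapdh difference, was the lowest of 8, and without that array the difference at 4 months was -0.10 in place of 0.25 and the averaged one 0.14 in place of 0.32. The group means ran in the order MT8m, MT4m, LM8m and LM4m, and only the step between MT8m and MT4m (7.05 and 6.77) was free of overlap. All 3 Fkbp5 probe sets were higher in mutants, by 0.09 to 0.32.

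Sgk1, a kinase that controls ion channels and transporters and is induced by glucocorticoids and by cell stress, had the largest genotype difference of the members. It read 7.99 and 9.09 in MT8m and 8.04 and 8.29 in LM8m. In MT4m it read 8.60 and 8.39, against 7.55 and 7.79 in LM4m. The groups were apart at 4 months and overlapped at 8 months, where the mutant arrays held both the lowest and the highest value. The difference was 0.83 ± 0.31 at 4 months, a 1.77-fold difference (limma adjusted p = 0.944), and 0.38 ± 0.31 at 8 months (adjusted p = 1). Averaged over ages it was 0.60 ± 0.22, or 1.52-fold, with a 95% interval of 0.11 to 1.10 (limma p = 0.0227, adjusted p = 0.847; exact permutation test, two-sided, p = 0.0857). The interaction of genotype and age was -0.45 ± 0.43 (limma adjusted p = 1). The group means ran in the order MT8m (8.54), MT4m (8.49), LM8m (8.16) and LM4m (7.67), and the first pair of neighbours overlapped while the others did not.

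The MT8m arrays decided how large this difference was. Without the library labelled MT8m replicate 1, whose Thy1 was at littermate level, Sgk1 was 0.88 higher in mutants averaged over ages and passed (limma adjusted p = 0.0479). Without MT8m replicate 2 it was 0.33, and at 8 months -0.17. Leaving out LM4m replicate 1 as well as MT8m replicate 1 gave 0.82 (limma adjusted p = 0.124). MT8m replicate 1 stood out by transcripts measured on these same arrays, so the value without it is not independent of the outcome.

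**Figure D3:**
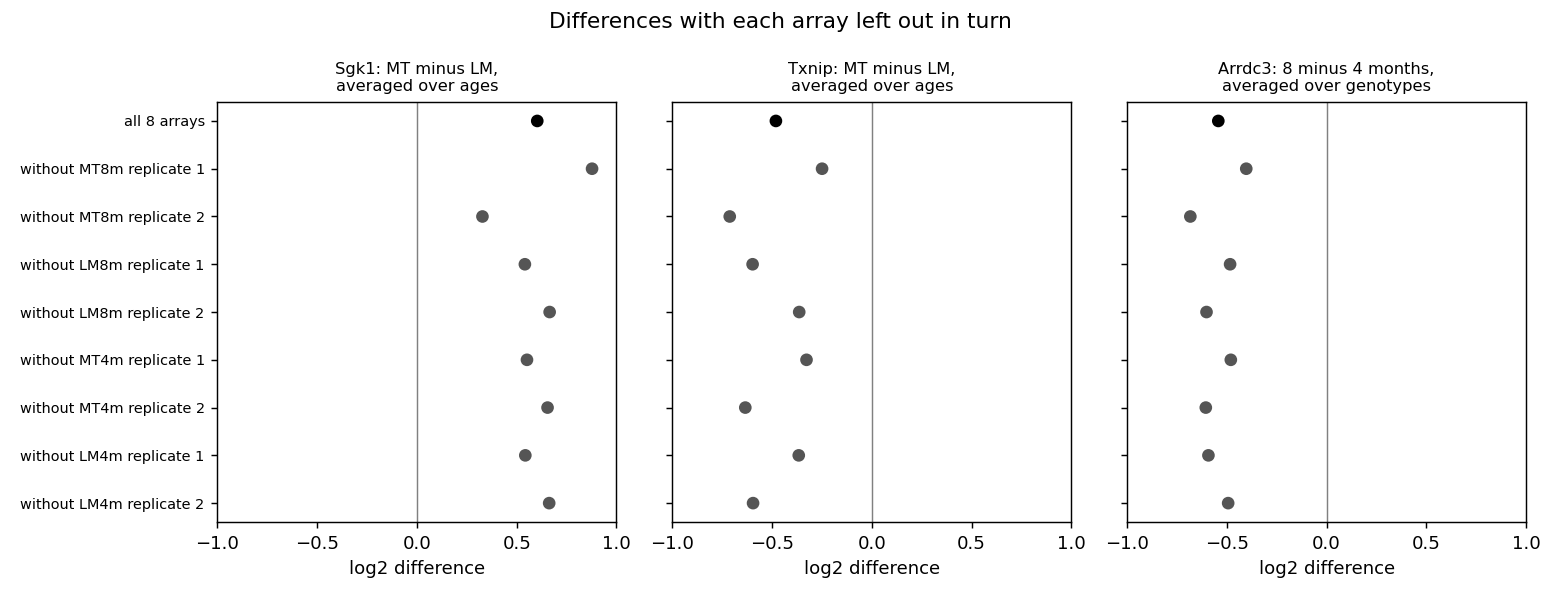
Log2 difference (horizontal axis) with all 8 arrays and with each array left out in turn (vertical axis), for Sgk1 and Txnip (MT minus LM, averaged over ages) and Arrdc3 (8 minus 4 months, averaged over genotypes). The sign held in every row, and Sgk1 moved between 0.33 and 0.88 with the 2 MT8m arrays.

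The level of Sgk1 moved with glial markers over the arrays. The mean of 10 microglial markers was 4.54 and 7.37 in MT8m, 4.47 and 4.77 in LM8m, 6.56 and 6.04 in MT4m and 4.51 and 4.41 in LM4m. The 3 arrays with the highest microglial level were also the 3 with the highest Sgk1. The mean of 8 astrocyte markers was 9.59, 8.56 and 8.49 on those arrays and 8.06 to 8.33 on the others. The part of these cells in the Sgk1 difference was not tested, and in bulk hippocampus more cells of a type and more RNA per cell cannot be told apart.

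Among the 6036 genes that varied at least as much as an SD of 0.2, the gene whose profile lay nearest to Sgk1 over the 8 arrays was Mlxipl, a glucose-sensing transcription factor (root mean square gap of the mean-centred log2 values 0.10, where the SD of Sgk1 was 0.49). Mlxipl read 2.89 and 3.97 in MT8m and 3.02 and 3.15 in LM8m, with 3.50 and 3.53 in MT4m and 2.68 and 2.78 in LM4m. Like Sgk1, it was apart at 4 months and split by the 2 MT8m arrays. The next were Lgmn, a lysosomal protease, and Rida, at a gap of 0.16 each. Lgmn was 5.91 on MT8m replicate 1 and 7.16 on MT8m replicate 2.

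**Figure D4:**
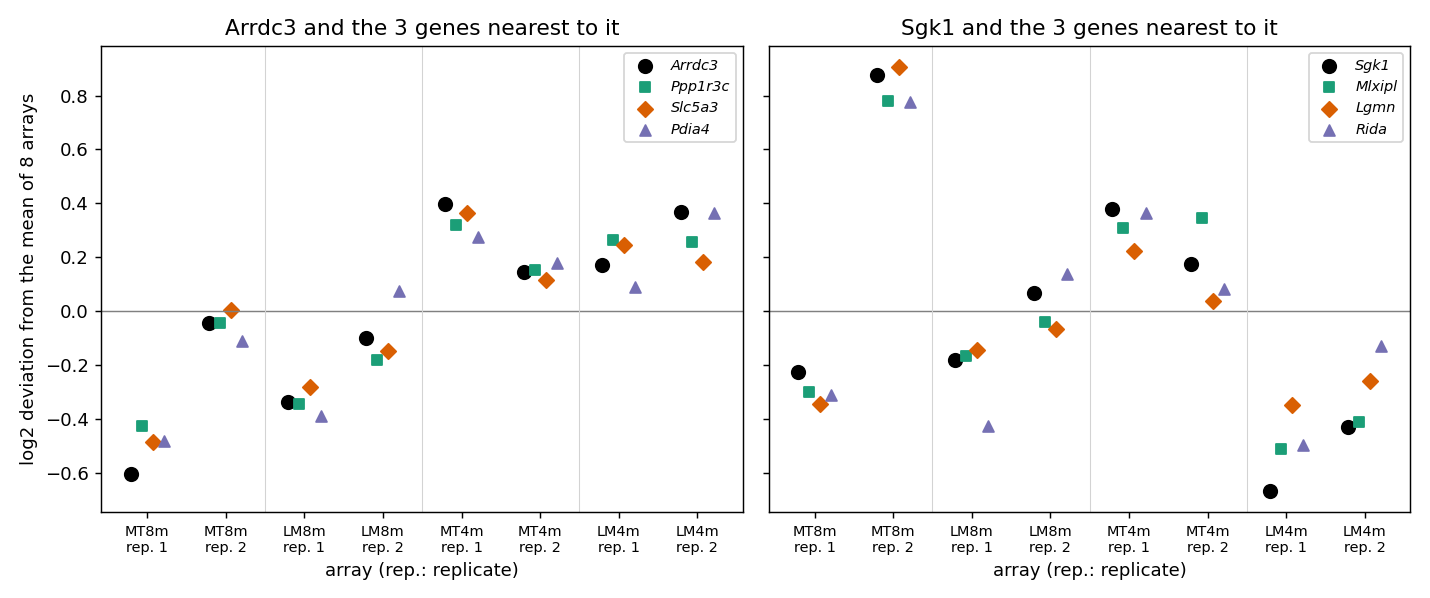
Log2 deviation from the mean of 8 arrays (vertical axis) on each array (horizontal axis) for Arrdc3 with the 3 genes nearest to it (left) and Sgk1 with the 3 nearest to it (right). On the left each gene is lower on every 8-month array than on every 4-month array, though Pdia4 only just (5.97 on LM8m replicate 2, against 5.98 on LM4m replicate 1), and on the right MT8m replicate 2 lies highest while MT8m replicate 1 lies with the LM arrays.

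Tsc22d3, or GILZ, a leucine zipper protein that carries much of the anti-inflammatory action of glucocorticoids, read 7.59 and 7.17 in MT8m, 7.52 and 7.44 in LM8m, 7.64 and 7.68 in MT4m and 7.93 and 7.49 in LM4m. MT8m lay below MT4m, and groups that differ only in genotype, or in age within LM, overlapped. The age difference averaged over genotypes was -0.26 ± 0.13 (limma adjusted p = 0.796) and the genotype difference averaged over ages -0.07 ± 0.13. Its 3 other probe sets were dimmer, and over all 4 the age difference was lower in 3.

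Klf9, a zinc finger repressor induced by glucocorticoids and thyroid hormone, read 10.55 and 10.23 in MT8m and 10.51 and 10.22 in LM8m. At 4 months it read 9.91 and 10.14 in MT4m, against 10.44 and 10.42 in LM4m. Only MT4m stood apart, below LM4m and below MT8m. The difference between mutants and littermates was -0.40 ± 0.16 at 4 months (limma adjusted p = 0.944) and 0.03 ± 0.16 at 8 months. With the mean of its 7 probe sets in place of the brightest, the difference at 4 months was -0.12. For 8 against 4 months, all 7 probe sets were higher averaged over genotypes, by 0.02 to 0.30, and the brightest by 0.15 ± 0.12 (limma adjusted p = 0.883).

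Zbtb16, or PLZF, a zinc finger repressor, read 6.51 and 6.16 in MT8m, 6.62 and 6.19 in LM8m, 6.38 and 6.49 in MT4m and 6.77 and 6.28 in LM4m, by its brightest probe set, and there no pair of groups was free of overlap. The largest averaged difference of that probe set was -0.11 ± 0.15 for 8 against 4 months, with a 95% interval of -0.46 to 0.24. Over all 3 Zbtb16 probe sets the age difference lay between -0.11 and 0.28 and the genotype difference between -0.19 and 0.16. With their mean the age difference was 0.04.

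Cdkn1a, or p21, which halts the cell cycle after p53 or glucocorticoid signals, read 3.57 and 4.03 in MT8m, 3.71 and 3.45 in LM8m, 3.98 and 3.81 in MT4m and 4.26 and 3.82 in LM4m. LM8m lay below LM4m, at -0.46 ± 0.21 (limma adjusted p = 1), and neither MT8m and MT4m nor the genotypes at either age were free of overlap. Averaged over genotypes the Cdkn1a age difference was -0.28 ± 0.15 (adjusted p = 0.798), and it was -0.05 without LM4m replicate 1 and MT8m replicate 1. The second Cdkn1a probe set, a little dimmer, read 3.00 and 3.24 in MT8m, 3.12 and 3.42 in LM8m, 3.35 and 3.35 in MT4m and 3.12 and 3.03 in LM4m. It ran the other way in LM, at 0.20 ± 0.15 for 8 against 4 months, and MT4m lay above LM4m by 0.27 ± 0.15 (limma adjusted p = 0.944), where the brighter probe set gave -0.14 ± 0.21.

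Arrdc3 encodes an alpha-arrestin that recruits ubiquitin ligases to surface receptors such as the beta-2 adrenergic receptor. It had 1 probe set, which read 5.54 and 6.10 in MT8m and 5.81 and 6.04 in LM8m, against 6.54 and 6.29 in MT4m and 6.31 and 6.51 in LM4m. All 4 values at 8 months were below all 4 at 4 months. Arrdc3 was -0.60 ± 0.20 in MT (limma adjusted p = 0.869) and -0.49 ± 0.20 in LM (adjusted p = 1) at 8 months relative to 4 months. Averaged over genotypes it was -0.54 ± 0.14, a 1.46-fold difference with a 95% interval of -0.87 to -0.22 (limma adjusted p = 0.606). The exact permutation test of 4 arrays against 4 (two-sided) gave p = 0.0286, the smallest it can give with 70 arrangements.

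Arrdc3 showed no clear genotype difference. It was -0.05 ± 0.14 in mutants relative to littermates averaged over ages, with a 95% interval of -0.38 to 0.28, and the interaction with age was -0.11 ± 0.29. In the order of the group means (MT4m 6.41, LM4m 6.41, LM8m 5.92, MT8m 5.82), LM4m and LM8m were the only neighbours without overlap. With each of the 8 arrays left out in turn the age difference stayed between -0.68 and -0.40, its ends set by MT8m replicate 2 and MT8m replicate 1. Within MT8m the mean of microglial markers was 4.54 and 7.37, and Arrdc3 was 5.54 and 6.10 on the same arrays. In LM8m the marker mean was 4.47 and 4.77, with Arrdc3 at 5.81 and 6.04. For MT4m these were 6.56 and 6.04, with 6.54 and 6.29. For LM4m they were 4.51 and 4.41, with 6.31 and 6.51. The part of these cells in the Arrdc3 values was not tested.

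The genes nearest to Arrdc3 in profile were Slc5a3, the myo-inositol transporter, Ppp1r3c, which targets protein phosphatase 1 to glycogen, and Pdia4, an endoplasmic reticulum chaperone, at gaps of 0.09, 0.09 and 0.10 where the SD of Arrdc3 was 0.35. Ppp1r3c read 7.49 and 7.88 in MT8m and 7.58 and 7.74 in LM8m, against 8.24 and 8.07 in MT4m and 8.18 and 8.18 in LM4m. It did not pass at -0.50 ± 0.11 averaged over genotypes (limma adjusted p = 0.544), with no overlap. The study set Ppp1r3c and Sfpq beside Arrdc3 from these same samples, so their array values are not independent evidence. The paper also measured these genes by RT-PCR and in cultured neurons, and Arrdc3 and Sfpq as proteins. Its hippocampal RT-PCR reports Arrdc3 mRNA rising with age in littermates and mutants, and higher in mutants at 4 months. On these arrays Arrdc3 was instead lower at 8 months in both genotypes, and its genotype difference at 4 months was 0.00 ± 0.20. Sfpq, an RNA-binding splicing factor, was 0.28 ± 0.13 at 8 months relative to 4 months (limma adjusted p = 0.779) and overlapped. The same RT-PCR reports Ppp1r3c mRNA rising with age in littermates. In mutants it reports Ppp1r3c and Sfpq mRNA falling with age, and both lower than in littermates at the late stage. On these arrays Ppp1r3c was lower at 8 months in both genotypes. Sfpq read 8.28 and 8.25 in MT8m and 7.92 and 7.96 in MT4m, against 8.40 and 7.85 in LM8m. At 8 months the genotypes overlapped for both genes. Slc5a3 read 6.96 and 7.45 in MT8m, 7.17 and 7.30 in LM8m, 7.81 and 7.56 in MT4m and 7.69 and 7.63 in LM4m. Within the member set Nr3c1 was nearest to Arrdc3, at a gap of 0.16.

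Arrdc2, a related alpha-arrestin, had 1 dim probe set at 2.12 and 2.53 in MT8m, 2.22 and 2.01 in LM8m, 1.92 and 2.34 in MT4m and 2.26 and 2.09 in LM4m. All groups overlapped. The mean of 2.18 lay below the median of 2.48 over all probe sets, and no detection call was used, so a change of Arrdc2 could have gone unseen. Its genotype difference averaged over ages was 0.08 ± 0.14 and its age difference 0.07 ± 0.14.

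Txnip binds and inhibits thioredoxin, lowers glucose uptake and is induced by glucose. It read 5.06 and 5.99 in MT8m and 5.68 and 6.15 in LM8m. In MT4m it read 4.82 and 5.44, against 5.93 and 5.47 in LM4m. MT4m lay below LM4m, though only just (5.44 and 5.47 on the nearest arrays), and the groups overlapped at 8 months. Averaged over ages Txnip was -0.48 ± 0.24 in mutants relative to littermates (limma p = 0.0744, adjusted p = 0.853; exact permutation test, two-sided, p = 0.171). The value was -0.71 without MT8m replicate 2, -0.25 without MT8m replicate 1 and -0.13 without both LM4m replicate 1 and MT8m replicate 1. The second Txnip probe set was at 1.98 to 2.41 and differed by -0.05.

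Other arrestins and the partners of this family were counted from lists. All 5 listed arrestins were measured and none passed. Arrdc4, which like Txnip responds to glucose, read 3.35 and 3.01 in MT8m, 2.65 and 3.20 in LM8m, 3.64 and 3.72 in MT4m and 3.31 and 3.30 in LM4m. It was 0.31 ± 0.14 in mutants relative to littermates (limma adjusted p = 0.853) and -0.44 ± 0.14 at 8 months relative to 4 months (adjusted p = 0.659), with overlap in both. Of 12 partners, which included the thioredoxin system, ubiquitin ligases and the glucose transporter gene Slc2a1, 10 were measured and none passed, and Mlxipl had the largest genotype difference at 0.57 ± 0.20 (limma adjusted p = 0.853), and 0.30 without MT8m replicate 2. Between genotypes, 4 of 5 arrestins and 5 of 10 partners were higher in mutants, with medians of 0.11 and 0.02 against -0.01 over all genes.

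Of 20 other genes that glucocorticoids are known to induce in some tissue, all were measured and none passed. In mutants relative to littermates, averaged over ages, 12 were higher and 8 lower (median 0.06, against -0.01 over all genes), and at 8 months relative to 4 months 15 were higher and 5 lower (median 0.11, against 0.00). At single ages the genotype split of the list was 16 higher and 4 lower at 8 months and 10 each way at 4 months. Cebpb and Ddit4 are named after their values were seen. Cebpb, a transcription factor of inflammation and fat cell formation, read 6.46 and 6.45 in MT8m, 5.97 and 5.93 in LM8m, 5.73 and 6.07 in MT4m and 6.17 and 6.69 in LM4m. It lay above littermates at 8 months (0.51 ± 0.19) and below them at 4 months (-0.53 ± 0.19), and its interaction of 1.04 ± 0.27 did not pass (limma adjusted p = 1). Ddit4, an inhibitor of mTOR signalling, was 0.04 ± 0.12 at 8 months and -0.52 ± 0.12 at 4 months in mutants relative to littermates (limma adjusted p = 1 and 0.858). Cdkn1c, or p57, a cell cycle inhibitor, read 3.12 and 2.68 in MT8m and 3.71 and 4.78 in LM8m, with 3.17 and 3.01 in MT4m and 3.93 and 3.55 in LM4m. All mutant values lay below all littermate values, at -0.997 ± 0.226 (limma adjusted p = 0.542). The choroid plexus markers were apart in the same direction (3.39 to 3.61 in mutants and 5.15 to 6.39 in littermates), and the 2 arrays with the highest Cdkn1c, LM8m replicate 2 and LM4m replicate 1, also had the highest mean of 7 meningeal markers (5.71 and 5.63, against at most 4.49 on the others). The part of these tissues in the Cdkn1c difference was not tested.

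Plin4, a lipid droplet coat protein, read 3.73 and 5.34 in MT8m and 3.48 and 3.65 in LM8m, against 3.35 and 3.21 in MT4m and 3.18 and 2.97 in LM4m. It was higher on all 8-month arrays than on all 4-month arrays, by 0.87 ± 0.29 averaged over genotypes (limma adjusted p = 0.673), with MT8m replicate 2 far above the rest, and by 0.47 without that array. Cebpd, a transcription factor of the acute phase response, was 0.49 ± 0.22 in mutants relative to littermates (limma adjusted p = 0.853), and 0.27 without MT8m replicate 2. The metallothionein gene Mt2 was 0.40 ± 0.19 at 8 months relative to 4 months (limma adjusted p = 0.782), but 0.15 without MT8m replicate 2, where it read 11.05 against at most 10.38 on the other arrays. The clock gene Per1 was 0.38 ± 0.19 (limma adjusted p = 0.792), and 0.18 without LM4m replicate 2.

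Relatives of the members and the p53 pathway showed no call either. Of 11 p53 targets and cyclin-dependent kinase inhibitors 9 were measured, and Cdkn1b had the largest averaged differences, at -0.22 ± 0.17 between genotypes and -0.29 ± 0.17 with age. Cdkn1b had its lowest value, 5.77, on MT8m replicate 1, and without that array these differences were -0.01 and -0.07. Without MT8m replicate 2 they were -0.43 and -0.50. At single ages the genotype differences of this list reached -0.31 at 4 months and 0.33 at 8 months. Of 11 paralogs from the Tsc22d, Klf and Sgk families all were measured. Tsc22d2 was -0.29 ± 0.11 at 8 months relative to 4 months (limma adjusted p = 0.704), Klf10 was -0.48 ± 0.28 (adjusted p = 0.827) and Klf6 was -0.20 ± 0.24. The Klf10 value was -0.17 without LM4m replicate 2 and -0.78 without LM4m replicate 1. Between genotypes, averaged over ages, the largest of the paralogs were Sgk2 at -0.22 ± 0.14, Klf4 at 0.21 ± 0.22 and Klf7 at -0.21 ± 0.12. Klf7 was -0.45 ± 0.17 at 4 months and 0.03 ± 0.17 at 8 months, and Klf4 was -0.04 ± 0.32 at 4 months and 0.46 ± 0.32 at 8 months, and neither passed at either age.

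Across arrays, several of the members' highest and lowest values fell on the same arrays. How often all probe sets have their extremes on these arrays was not counted, so this describes the arrays and members together. MT8m replicate 2 had the highest value of Fkbp5, Sgk1 and Arrdc2 and the lowest of Tsc22d3 and Zbtb16. LM4m replicate 1 had the highest of Tsc22d3, Zbtb16 and Cdkn1a and the lowest of Fkbp5 and Sgk1. MT4m replicate 1 had the highest of Arrdc3 and the lowest of Klf9, Arrdc2 and Txnip. MT8m replicate 1 had the highest of Klf9 and the lowest of Nr3c1 and Arrdc3. Thus on MT8m replicate 2 and LM4m replicate 1, genes that the receptor is known to induce deviated in opposite directions by their brightest probe sets. Fkbp5 was 0.34 above its mean and Tsc22d3 0.39 below its own on MT8m replicate 2. On LM4m replicate 1 Fkbp5 was 0.59 below its mean and Tsc22d3 0.37 above. Dimmer probe sets of these genes were mixed. An Fkbp5 probe set read 2.43 on MT8m replicate 2, below its mean of 2.62. Of the Tsc22d3 probe sets on LM4m replicate 1, 1 read 5.18, below its mean of 5.28, and another 4.54, above its mean of 4.24. Tsc22d3 and Zbtb16 were the closest pair of members in profile, at a root mean square gap of 0.12. The large microglial level of MT8m replicate 2 and the Gapdh difference of LM4m replicate 1 lay on these arrays, and their part was not tested.

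**Figure D5:**
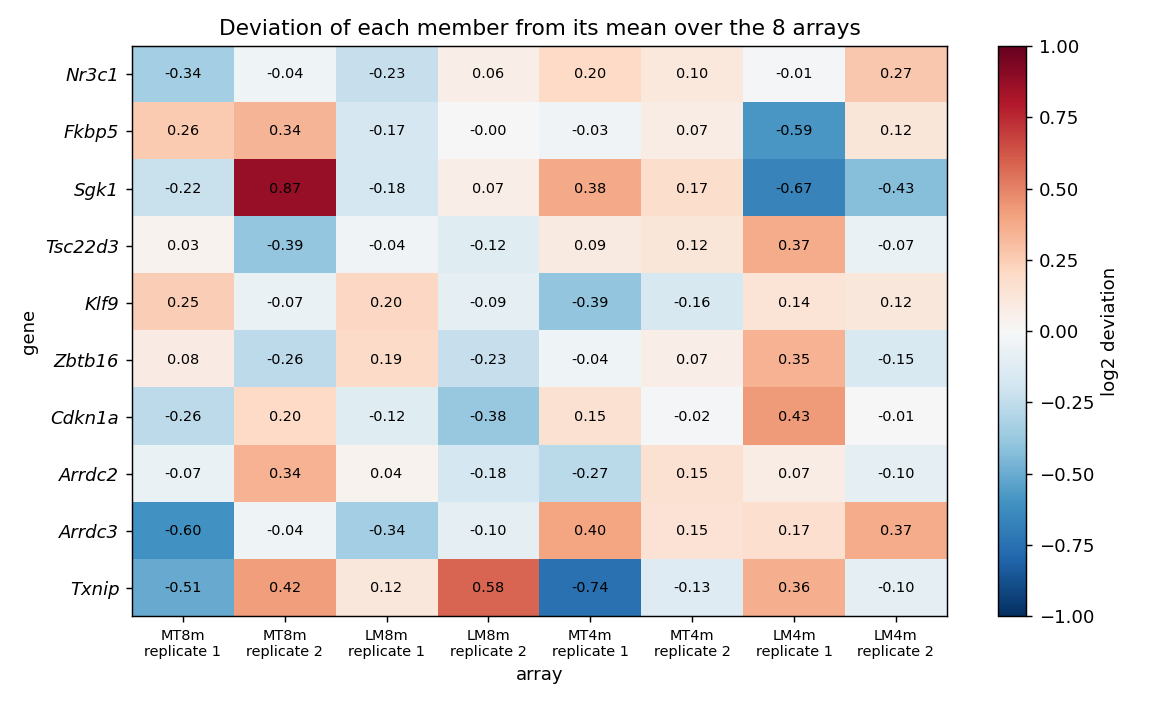
Log2 deviation (colour and printed value) of the brightest probe set of each gene (rows) from its mean over the 8 arrays (columns). Fkbp5 and Sgk1 are high and Tsc22d3 and Zbtb16 low on MT8m replicate 2, the reverse holds on LM4m replicate 1, and Arrdc3 is low on all 8-month arrays.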

How the data were processed

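RNA from hippocampus was hybridised to one-colour Affymetrix whole-genome mouse arrays. The authors applied RMA in the R package affy, and the values they deposited are on the log2 scale, for 45101 probe sets. Of these, 64 were controls and were left out. Values ran from 0.979 to 12.8. The zero of this scale could not be placed, and no scanner files or detection calls were used here. The number of arrays limits the precision.

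Groups came from the labels, which give 2 arrays each, although the design text lists 4 mutant subjects per age for screening. The members and lists were chosen with earlier results of these data known. Probe sets were named from the platform annotation: 34945 had 1 symbol, 932 had several and 9160 had none. A model of 4 group means over all 8 arrays was fitted in limma 3.58.1 (lmFit, eBayes; R 4.3.3) (4 residual degrees of freedom), as contrasts of genotype, age and their interaction. P-values are two-sided, adjusted by Benjamini-Hochberg over 45037 probe sets. Besides the members, the text names up to 3 genes per list with the largest averaged differences and the 3 nearest profiles of members whose SD reached 0.2. The fit was checked on simulated data.

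Alternatives were dim probe sets left out, cyclic loess, a trended and robust prior, the mean of a gene's probe sets, a block for the title number, and fits that omit 1 array. Added after seeing the data were the fit without both doubted arrays, crossed mutant numbers, and differences of the named list genes without each array.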

Additional observations from a re-analysis of the deposited data

How the results depend on the processing

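The number of members that passed was 0 in all 7 comparisons and under the alternatives run, except that leaving out each array in turn gave 0 to 1 for mutants against littermates averaged over ages. The 1 was Sgk1 without MT8m replicate 1, at 0.88 with a limma adjusted p of 0.0479, where 142 probe sets passed in place of 27. Over all alternatives its averaged difference lay between 0.33 and 0.88. No sign of a passing value was reversed. Arrdc3 was lower at 8 months in all 15 alternatives (-0.68 to -0.40), none with an adjusted p under 0.201. The title numbers are shared across ages by different animals and do not pair them. Deviations of same-numbered arrays correlated at 0.24 in LM and -0.17 in MT. With the number as a replicate block, 0 members and 0 probe sets passed for 8 against 4 months averaged over genotypes, and Arrdc3 stayed at -0.54 (limma adjusted p = 0.509). With the mutant numbers crossed, 0 members and 3 probe sets passed. Genotype comparisons could not take the block, as the groups share no such numbers. With 2 arrays a group and 4 residual degrees of freedom, an averaged difference of a member had a standard error of 0.12 to 0.24. Differences of several standard errors did not pass either, such as Arrdc3 with age at -0.54 ± 0.14 (limma adjusted p = 0.606). A member that did not pass may therefore still differ.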

Other observations

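Among the other members, the nearest profiles over the 8 arrays were those of Zbtb41 for Nr3c1 (root mean square gap 0.04), Fth1, the ferritin heavy chain, for Fkbp5 (0.04), Mon1a for Tsc22d3 (0.05), Fbxo41 for Klf9 (0.06), Rusc1 for Zbtb16 (0.07) and Cited2, a transcriptional coregulator, for Cdkn1a (0.06). Fth1 read 12.03 and 12.11 in MT8m and 11.64 and 11.85 in LM8m, with 11.80 and 11.93 in MT4m and 11.25 and 11.87 in LM4m. Like Fkbp5, Fth1 was apart at 8 months and had its lowest value on LM4m replicate 1. Its averaged genotype difference was 0.32 ± 0.14 (limma adjusted p = 0.853). The nearest to Txnip was Wfdc17, at a gap of 0.17 where the SD of Txnip was 0.46. These likenesses were sought among 6036 genes and are descriptions without a test.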
